A study of Sus scrofa with 12 samples.

Results

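On a porcine Affymetrix array, 12 of 24123 probe sets measure 7 genes that release, take up or respond to calcium in muscle fibres, of 6765 genes named by a single symbol. They were chosen by gene symbol: every probe set whose 1 symbol in the platform annotation is RYR1 (1 probe set), ATP2A1 (2), ATP2A2 (4), SLN (1), PLN (2), CAMK2B (1) or CAMK2D (1). CASQ1 was on the same list of 8 symbols and had 0 probe sets with that symbol. RNA came from the semimembranosus, a large hind-leg muscle, of 3 female commercial hybrid pigs of about 160 kg from 1 farm, stunned with CO2 at 87% and killed at 1 abattoir. Each pig gave 1 portion of the left muscle of 3 to 5 g at 20 min, 2 h, 6 h and 24 h after death, as the carcass was chilled to 4 °C, so the 12 arrays form 4 times with 3 pigs each. All groups share breed type, sex, farm and stunning, and there is no sample from living muscle: the 20 min portions are the earliest point and serve as the reference.

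In a resting fibre most calcium is held in the sarcoplasmic reticulum. A nerve impulse opens the ryanodine receptor, encoded by RYR1, and the calcium that flows out starts contraction; the SERCA pumps, encoded by ATP2A1 in fast fibres and by ATP2A2 in slow fibres and heart, then use ATP to pump it back. Sarcolipin (SLN) and phospholamban (PLN) are small membrane proteins that slow the pumps, and CaMKII, a kinase switched on by calcium and calmodulin, is built from subunits that include the products of CAMK2B and CAMK2D. After slaughter, calcium leak and the loss of ATP are known to drive rigor and meat ageing, and RYR1 is known in pigs for a variant that causes stress-induced hyperthermia and pale meat. The arrays read transcript levels only.

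Values below are log2 intensities as deposited, so a difference of 1 is a doubling, and each is relative to the whole array. Levels of different probe sets cannot be set against each other, because probes bind with different strength. Of 15 listed markers of muscle fibres 11 had a probe set with their single symbol, with mean log2 levels between 13.3 and 14.5, against array medians of 5.89 to 5.94. Macrophage and leukocyte markers (6 of 8 with such a probe set) had mean levels between 3.98 and 7.40. In bulk muscle, fewer cells of a type and less RNA per cell cannot be told apart. Markers of other cell types differed over time unequally between pigs. From 20 min to 24 h, in pigs 1, 2 and 3, the mean of the macrophage list differed by -0.36, -0.35 and -1.31, that of the fibroblast list by 0.08, -0.02 and -0.36, and that of the adipocyte list by -0.13, -0.12 and -0.85, so these 3 lists differed most in pig 3. The endothelial list gave -0.04, 0.33 and -0.22 and the smooth muscle and pericyte list 0.01, 0.30 and -0.23, with the largest values in pig 2. The part of these cells in the results was not tested.

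Of the 12 probe sets, 0 passed the test at any later time, by limma with pig as a block and adjustment over all 23999 probe sets. The smallest adjusted p was 0.579 at 2 h, 0.488 at 6 h and 0.241 at 24 h, each against 20 min. The whole array gave little more: 0 probe sets at 2 h (0%), 0 at 6 h (0%) and 1 at 24 h (0.00417%) passed. At an unadjusted p under 0.05, 4 of 12 member probe sets were called at 2 h, where 7.95% of all probe sets were: 4 higher (4.01% of all) and 0 lower (3.94%). At 6 h, 3 were called (8.83% of all), with 3 higher (4.29%) and 0 lower (4.54%). At 24 h, 5 were called (13.1% of all), with 4 higher (6.41%) and 1 lower (6.67%). Between later times, 0 were called at 6 h against 2 h (2.26% of all) and 0 at 24 h against 2 h (5.23%). For 24 h against 6 h, 1 was called (8.08%), the dimmest of the ATP2A2 sets. In these comparisons 0 passed after adjustment. For any difference over the 4 times 3 were called (8.22% of all) and 0 passed (0.00417%). These probe sets came from PLN, CAMK2B, ATP2A2 and CAMK2D. The counts lean on pig 3: without it they were 0 at 2 h, 2 at 6 h and 0 at 24 h, and without its 20 min array 1, 2 and 1. Without pig 2 the 24 h count was 2, without the 20 min array of pig 2 the counts were 2 at 2 h and 2 at 24 h, and without the 2 h array of pig 1 or of pig 3 the 2 h count was 1. Without pig 1 or its 20 min array, the 6 h count was 5. Without the 24 h array of pig 2 or of pig 3, the 24 h count was 3. Without the replicate block they were 0, 0 and 2. The comparisons share the 20 min arrays, and probe sets of 1 gene are not independent. The members were also chosen with earlier results of these data known. Their shares beside those of all probe sets, here and below, therefore describe them and test nothing.

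**Figure D1:**
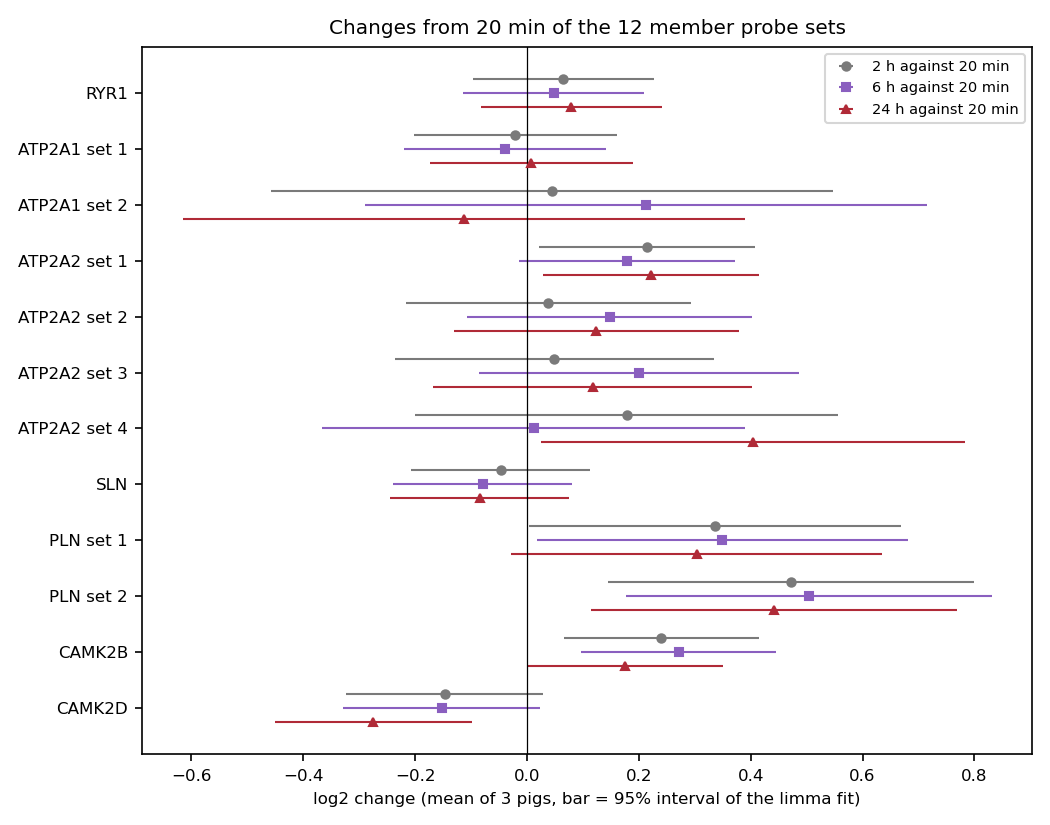
Log2 change from 20 min of the 12 probe sets at 2 h, 6 h and 24 h (mean of 3 pigs, bars are 95% intervals of the limma fit). The points of RYR1, the ATP2A2 and PLN sets and CAMK2B lie to the right of 0, and those of SLN and CAMK2D to the left. Many of the bars cross 0, and no probe set passed after adjustment over all probe sets.

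The fit gave an interval for the mean change in array signal of each probe set. Its spread was pooled over all times and drawn partly from other probe sets. For the brighter PLN set at 24 h the fit gave the mean change a standard error of 0.15. The changes in pigs 1, 2 and 3 were -0.24, 0.43 and 0.71, with an SD of 0.49 between single pigs. The intervals therefore do not bound the change in each pig. Where pigs disagree they can also be too narrow for the mean. Whether the signal of the brightest probe sets follows transcript level in proportion was not tested. At 24 h, the 95% interval of this fit lay within 2-fold in either direction for 12 of 12 probe sets and within 1.5-fold for 8. At 2 h and 6 h it lay within 1.5-fold for 10 and 9. These counts rest on the pooled spread. Intervals from the changes of the 3 pigs alone were not computed, so a mean change beyond these limits is not excluded. The median change of the 12 at 24 h was 0.12, beside 0.008 for all probe sets.

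RYR1, the calcium release channel, differed between pigs and hardly between times. Its log2 levels in pigs 1, 2 and 3 were 12.91, 13.13 and 12.77 at 20 min, 13.00, 13.15 and 12.86 at 2 h, 12.92, 13.20 and 12.83 at 6 h, and 13.05, 13.19 and 12.81 at 24 h (1 probe set, gene ID 396718). Pig 2 was highest and pig 3 lowest at each of the 4 times, so the groups overlap fully. Differences between pigs held 92.3% of the sum of squares over the 12 arrays and differences between times 4.03%, where the medians over all probe sets were 31.8% and 21.0%. The order of the 3 pigs was the same at all 4 times for 6.05% of all probe sets, and for RYR1 and 1 ATP2A2 probe set among the members. At 24 h the change from 20 min was 0.08 ± 0.06 (SD over 3 pigs), with a 95% interval of -0.08 to 0.24 and an adjusted p of 0.663 in the limma fit. It was above 0 in 3 of 3 pigs at each later time, by 0.02 to 0.15.

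**Figure D2:**
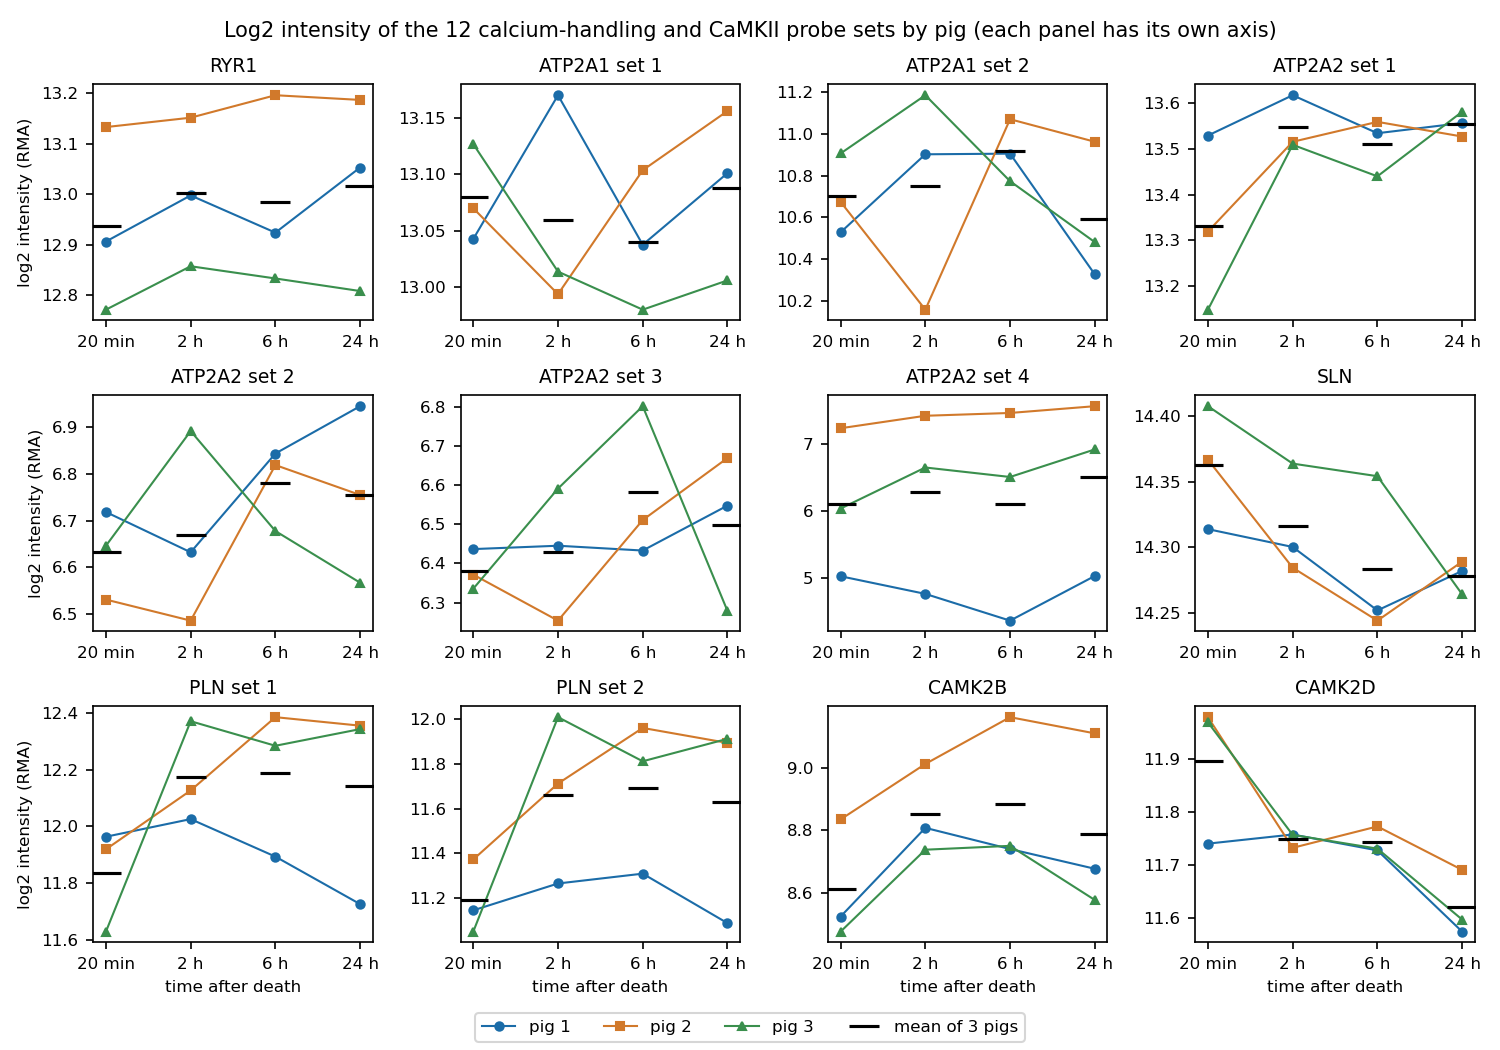
Log2 intensity of each of the 12 probe sets at 20 min, 2 h, 6 h and 24 h, 1 line per pig and black marks for the mean of 3 pigs; each panel has its own axis, and set 1 is the brightest of a gene. RYR1 keeps the order pig 2, pig 1, pig 3, PLN is higher after 20 min in pigs 2 and 3 and below its first level in pig 1 at 24 h, and CAMK2D is lowest at 24 h.

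ATP2A1, the fast-fibre pump, stayed within a narrow range in its brighter probe set. That set (gene ID 100516962) read 13.04, 13.07 and 13.13 in pigs 1, 2 and 3 at 20 min and 13.10, 13.16 and 13.01 at 24 h, with all 12 arrays between 12.98 and 13.17. Groups overlapped at every time, and the change at 24 h was 0.01 ± 0.11 (95% interval -0.17 to 0.19, adjusted p = 0.976 in the limma fit). The direction of so small a value turned with the pigs: without pig 1 it was -0.02 and without pig 2 -0.03. The dimmer set was noisier, from 10.16 in pig 2 at 2 h to 11.19 in pig 3 at 2 h. Its change at 24 h was -0.11 ± 0.36 with an interval of -0.62 to 0.39, a wide interval for this probe set. The 2 ATP2A1 sets correlated with r = 0.35 over the 12 arrays.

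ATP2A2, the slow-fibre and heart pump, was a little higher after 20 min in its brightest probe set, set 1 (gene ID 396875). Its levels in pigs 1, 2 and 3 were 13.53, 13.32 and 13.15 at 20 min, 13.62, 13.52 and 13.51 at 2 h, 13.53, 13.56 and 13.44 at 6 h, and 13.56, 13.53 and 13.58 at 24 h. Pigs 2 and 3 were lower at 20 min than at any later time, and pig 1 was level throughout, so the groups overlap. The change at 24 h was 0.22 ± 0.20 (1.17-fold, unadjusted p = 0.0277, limma adjusted p = 0.331), with 0.03, 0.21 and 0.43 in pigs 1, 2 and 3. At 2 h it was 0.21 ± 0.14 (adjusted p = 0.612) and at 6 h 0.18 ± 0.15 (adjusted p = 0.585), above 0 in 3 of 3 pigs each time. Without pig 3 the changes at 2 h, 6 h and 24 h were 0.14, 0.12 and 0.12, and without its 20 min array 0.14, 0.10 and 0.14. Reassigning the times inside each pig in all 13824 ways, an exact permutation test that counts large values only and cannot go below 0.00174, gave p = 0.0677.

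The other ATP2A2 probe sets read differently. Set 2, whose suffix marks probes shared with other transcripts, lay between 6.49 and 6.94 on all arrays, and set 3 between 6.25 and 6.80; their changes at 24 h were 0.12 ± 0.18 and 0.12 ± 0.18, with adjusted p of 0.664 and 0.719 in limma. Set 4 split the pigs. It read 5.02, 7.23 and 6.03 in pigs 1, 2 and 3 at 20 min, 4.76, 7.41 and 6.64 at 2 h, 4.36, 7.46 and 6.50 at 6 h, and 5.03, 7.56 and 6.91 at 24 h. Pig 1 was lowest and pig 2 highest at all 4 times, with no overlap between any 2 pigs. The means of the pigs spanned 2.62, a wider range than in 99.9% of all probe sets, and differences between pigs held 94.9% of the sum of squares. No such split was seen in the brightest set, where the means of the pigs spanned 0.14. Set 4 was 0.40 ± 0.44 higher at 24 h (adjusted p = 0.361), by 0.004, 0.33 and 0.88 in pigs 1, 2 and 3, and 0.17 higher without pig 3. By unadjusted limma p it was among the sets called at 24 h (0.0383) and was the one called at 24 h against 6 h. In pig 1 it read below the array medians of 5.89 to 5.94 at all 4 times. Sets 2 and 3 lay not far above those medians. All 4 sets carry the same RefSeq accession in the annotation, and the sequences of their probes were not used here.

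**Figure D3:**
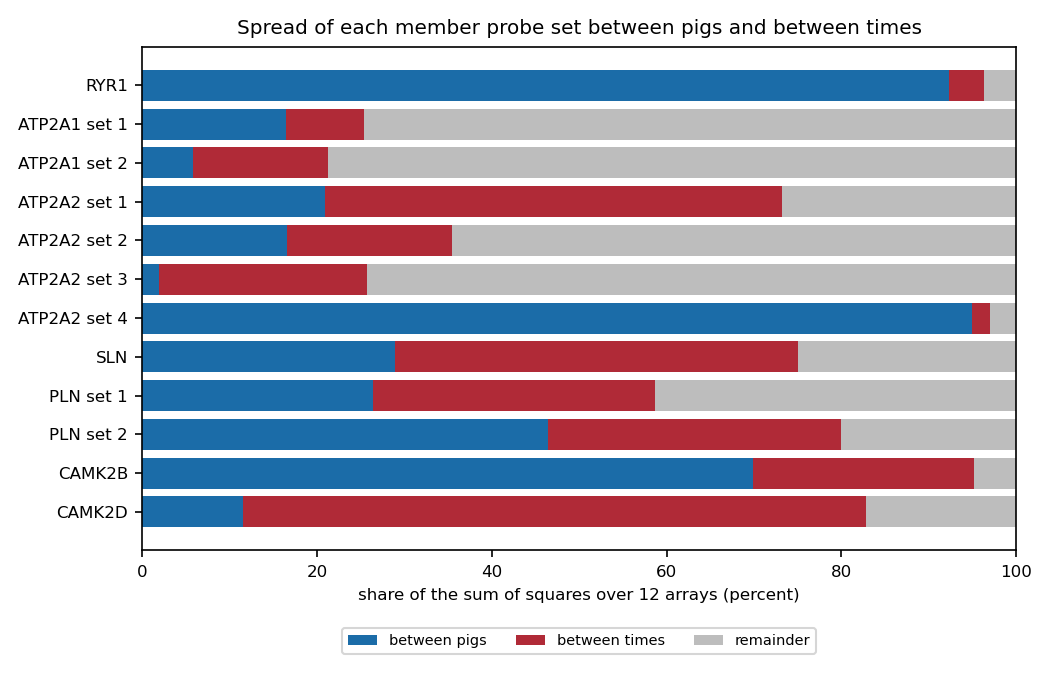
Share of the sum of squares over the 12 arrays that lies between pigs, between times and in the remainder, for each of the 12 probe sets (bars add to 100 percent). Pigs take 92.3% for RYR1 and 94.9% for ATP2A2 set 4, and times take 71.4% for CAMK2D.

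SLN, the pump inhibitor sarcolipin, was slightly lower at each later time. Its levels in pigs 1, 2 and 3 were 14.31, 14.37 and 14.41 at 20 min, 14.30, 14.28 and 14.36 at 2 h, 14.25, 14.24 and 14.35 at 6 h, and 14.28, 14.29 and 14.26 at 24 h (gene ID 733627). The 24 h and 20 min arrays did not overlap, as was so in this direction for 4.72% of all probe sets. The change at 24 h was -0.08 ± 0.06, below 0 in 3 of 3 pigs, with an interval of -0.24 to 0.08 and an adjusted p of 0.634 in limma; the exact permutation within pigs gave p = 0.0868.

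PLN, the pump inhibitor phospholamban, showed the largest mean differences among the 7 genes, and the pigs differed. In the brighter set (gene ID 397421) pigs 1, 2 and 3 read 11.96, 11.92 and 11.63 at 20 min, 12.03, 12.13 and 12.37 at 2 h, 11.89, 12.38 and 12.28 at 6 h, and 11.73, 12.35 and 12.34 at 24 h. At 2 h the arrays lay above all 20 min arrays, as they did in this direction for 4.2% of all probe sets. At 6 h and 24 h pigs 2 and 3 were above their own 20 min level and pig 1 was below it. The second set read 11.15, 11.37 and 11.05 at 20 min, 11.27, 11.71 and 12.01 at 2 h, 11.31, 11.96 and 11.81 at 6 h, and 11.09, 11.89 and 11.91 at 24 h. Both PLN sets followed each other, with r = 0.96 over the 12 arrays.

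Changes in the second PLN set from 20 min were 0.47 ± 0.43 at 2 h (1.39-fold), 0.50 ± 0.31 at 6 h (1.42-fold) and 0.44 ± 0.46 at 24 h (1.36-fold). Unadjusted p was 0.00850, 0.00576 and 0.0124, and limma adjusted p was 0.579, 0.488 and 0.281. In the brighter set they were 0.34 ± 0.36, 0.35 ± 0.38 and 0.30 ± 0.49, with adjusted p of 0.625, 0.555 and 0.414. By pig, the change of the brighter set at 24 h was -0.24, 0.43 and 0.71 in pigs 1, 2 and 3. Without pig 3 the changes of the brighter set at 2 h, 6 h and 24 h were 0.13, 0.20 and 0.10, and those of the second set 0.23, 0.38 and 0.23. Without only the 20 min array of pig 3 they were 0.15, 0.16 and 0.12 in the brighter set and 0.28, 0.31 and 0.25 in the second. Without pig 1 they were 0.47, 0.56 and 0.57, and 0.65, 0.67 and 0.69. Exact permutation within pigs gave p = 0.283 for the brighter and p = 0.115 for the second set. The difference between probe sets of 1 gene was compared over time for 8 pairs with the same exact permutation test; the PLN pair gave p = 0.106, and the smallest adjusted p over the 8 pairs was 0.813.

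Both PLN sets and the brightest ATP2A2 set were higher in pigs 2 and 3 at 24 h, and so were slow-fibre markers. ATP2A2 sets 2 and 3 had another order: at 24 h they differed from 20 min by 0.23, 0.22 and -0.08, and by 0.11, 0.30 and -0.06, in pigs 1, 2 and 3. The mean of 7 slow-fibre genes, with neither ATP2A2 nor PLN among them, differed from 20 min at 2 h by 0.02, 0.23 and 0.32 in pigs 1, 2 and 3, at 6 h by -0.02, 0.30 and 0.31, and at 24 h by -0.04, 0.25 and 0.25. The mean of 6 fast-fibre genes differed at 24 h by 0.01, -0.04 and -0.10. At 20 min the slow-fibre mean ranged from 12.87 to 13.18 over the pigs, and at 24 h from 13.12 to 13.24. Each time is a separate portion of muscle, and the part of slow fibres in these values was not tested. Over the 12 arrays, after taking out the mean of each pig, the brightest PLN and ATP2A2 sets correlated with r = 0.91. The named genes most like ATP2A2 by this measure were PRDX2 (0.97), ACADVL (0.97), SCNN1A (0.97), the slow myosin gene MYH7 (0.97) and the fatty acid carrier gene FABP3 (0.96). Those most like PLN were KYAT1 (0.98), ARMC6 (0.98), GATD1 (0.97), the monoamine oxidase gene MAOB (0.97) and C7H6orf136 (0.97). These r describe 12 arrays of 3 pigs, which share the 20 min arrays and the animals, and they are the highest of all named genes, so no p is given.

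**Figure D4:**
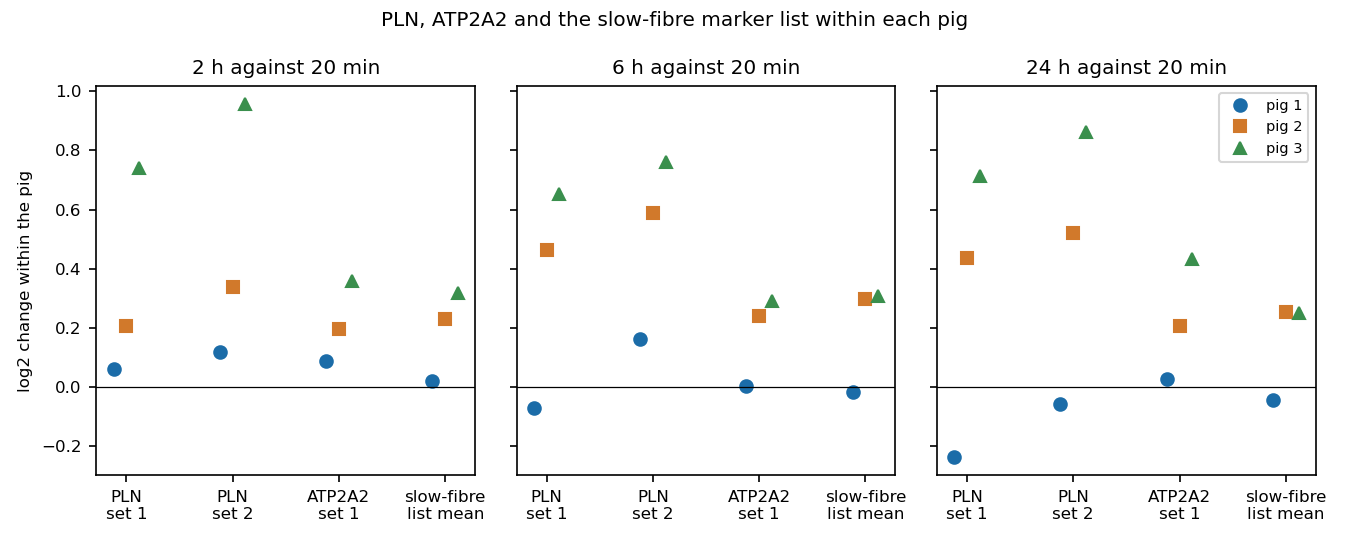
Log2 change from 20 min within each pig for both PLN sets, the brightest ATP2A2 set and the mean of 7 slow-fibre markers, at 2 h, 6 h and 24 h. Pig 1 lies between -0.24 and 0.16 throughout, and pigs 2 and 3 lie above it in every column.

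CAMK2B, a CaMKII subunit gene, was higher in all 3 pigs at each later time. Its probe set (gene ID 100516166) read 8.53, 8.84 and 8.48 in pigs 1, 2 and 3 at 20 min, 8.81, 9.01 and 8.74 at 2 h, 8.74, 9.16 and 8.75 at 6 h, and 8.68, 9.11 and 8.58 at 24 h. Pig 2 was highest at each time, so the groups overlap although every pig was above its own 20 min level. The change was 0.24 ± 0.06 at 2 h (1.18-fold), 0.27 ± 0.06 at 6 h (1.21-fold) and 0.18 ± 0.09 at 24 h (1.13-fold). Unadjusted p was 0.0113, 0.00550 and 0.0488, and limma adjusted p 0.587, 0.488 and 0.380. Of all probe sets, 13.8%, 15.4% and 17.8% were higher in 3 of 3 pigs at 2 h, 6 h and 24 h; of the 12 members 5, 5 and 4 were. Without pig 3 the 6 h change was 0.27 and the 24 h change 0.21. Over 23 alternative fits the 24 h change was 0.12 to 0.22, with an unadjusted limma p under 0.05 in 7. Without the replicate block the unadjusted limma p were 0.169 at 2 h, 0.124 at 6 h and 0.304 at 24 h. The exact permutation of times within pigs gave an unadjusted p of 0.0226. Between 6 h and 24 h the level was lower in 3 of 3 pigs, by 0.10 ± 0.07 (adjusted p = 0.806).

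CAMK2D, another CaMKII subunit gene, was lower and had the smallest p of the 12 probe sets at 24 h. Its probe set (gene ID 397674) read 11.74, 11.98 and 11.97 in pigs 1, 2 and 3 at 20 min, 11.76, 11.73 and 11.76 at 2 h, 11.73, 11.77 and 11.73 at 6 h, and 11.57, 11.69 and 11.60 at 24 h. All 24 h arrays lay below every array of the other times. For each comparison alone, this was so for 4.72% of all probe sets against 20 min, 2.62% against 2 h and 3.99% against 6 h. The share for all of them at once was not computed. Pigs 2 and 3 had most of their difference by 2 h, while pig 1, which began lower, was level until 6 h. The change was -0.15 ± 0.14 at 2 h, -0.15 ± 0.12 at 6 h and -0.27 ± 0.10 at 24 h; the 2 h value was -0.23 without pig 1 and -0.10 without pig 2. At 24 h this was 1.21-fold lower, with a 95% interval of -0.45 to -0.10, an unadjusted p of 0.00537 and a limma adjusted p of 0.241. Differences between times held 71.4% of the sum of squares, and the exact permutation within pigs gave p = 0.0139. The permutation p are not adjusted for the 12 probe sets tested. Those not given with their genes were 0.193 for RYR1, 0.852 and 0.752 for the ATP2A1 sets, and 0.623, 0.641 and 0.314 for ATP2A2 sets 2, 3 and 4. The alternative fits, 23 in number, put the 24 h change at -0.34 to -0.23, with adjusted p from 0.107 to 0.805. Without pig 3 the unadjusted p was 0.0642.

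A measure of RNA quality is how far the 3′ probe set of a control transcript exceeds its 5′ probe set, which grows as RNA breaks down. For EF1A this excess differed from 20 min at 24 h by 0.38, -0.01 and 0.47 in pigs 1, 2 and 3, where the CAMK2D values were -0.17, -0.29 and -0.37. For the GAPDH control these changes were 0.06, 0.01 and 0.04, and for the actin control 0.09, -0.23 and -0.04, lower in 2 of 3 pigs. At 2 h the excess differed from 20 min by 0.08, 0.49 and 0.26 for EF1A in pigs 1, 2 and 3. The 2 h values were 0.001, 0.04 and -0.07 for GAPDH and -0.22, 0.31 and -0.19 for actin. The exact permutation within pigs gave p = 0.278 for EF1A, p = 0.194 for GAPDH and p = 0.752 for actin. The part of RNA quality in the values of CAMK2D and of the other members was not tested. By the r after taking out pig means, the named genes most like CAMK2D were the ribosomal protein gene RPL15 (0.96), the antioxidant enzyme gene GPX1 (0.95), UCHL1 (0.94), LOC100512195 (0.94) and the tropomyosin gene TPM1 (0.94), and those most like CAMK2B were VPS28 (0.94), ACSS2 (0.93), RAMP1 (0.93), ACTR1A (0.93) and BCAR3 (0.92). For SLN the nearest gene was ZFAND6 (0.99), for RYR1 it was LFNG (0.92), and for ATP2A1 it was MTA3 (0.91).

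The wider calcium pathway was read with the same fit. Of 103 further gene symbols listed, with older and newer names of some genes among them, 55 had a probe set with that single symbol. Each was read by its brightest probe set, and 0 passed at any time. The other genes may be on the array without their symbol. At 24 h, 2 of these 55 were higher and 5 lower at an unadjusted p under 0.05, against 6.41% and 6.67% of all probe sets. At 2 h it was 4 and 0, against 4.01% and 3.94% of all probe sets, and at 6 h 4 and 2, against 4.29% and 4.54%. Median changes of the 3 lists at 24 h were 0.04 for triad and coupling (12 genes), -0.09 for uptake, storage and extrusion (20 genes) and -0.01 for calmodulin, kinases and calcineurin (23 genes). Single pigs differed more in some genes that were not called. In pigs 1, 2 and 3 at 24 h, PPARGC1A differed by -1.07, -0.29 and 0.38. CASQ2 differed by -0.92, 0.27 and 0.23, and MRLN by -0.09, -0.35 and -0.76.

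The triad and coupling list held 2 higher and 2 lower genes at 24 h by unadjusted p. TMEM38A, a potassium channel of the sarcoplasmic reticulum, was 0.27 ± 0.16 higher (adjusted p = 0.309) and was higher in 3 of 3 pigs at 2 h and 6 h too. ITPR1, the inositol trisphosphate receptor, was 0.31 ± 0.21 higher (adjusted p = 0.300). FKBP1B, which binds ryanodine receptors, was lower by -0.42 ± 0.30 (adjusted p = 0.241), with -0.15, -0.36 and -0.75 in pigs 1, 2 and 3; its other probe set gave -0.05 ± 0.12. CACNA2D1, a subunit of the voltage sensor, was lower by -0.23 ± 0.04 (adjusted p = 0.330), with -0.26, -0.18 and -0.25 in pigs 1, 2 and 3.

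Of the uptake and storage genes, STIM2, a sensor of stored calcium, was lower by -0.33 ± 0.24 at 24 h (adjusted p = 0.299). In the calmodulin list, PPP3CA, the catalytic subunit of the calcium-activated phosphatase calcineurin, was lower by -0.41 ± 0.16 with an unadjusted p of 0.00158 and a limma adjusted p of 0.193. It read 10.37 on average at 20 min and 9.95 at 24 h and was lower in 3 of 3 pigs, by 0.24 to 0.55; its other probe sets gave -0.31 ± 0.36 and -0.27 ± 0.46, with pig 1 higher in both. CAMK2G, a further CaMKII subunit gene, was lower by -0.21 ± 0.10 (adjusted p = 0.352), and by -0.05 ± 0.07 in its second set.

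**Figure D5:**
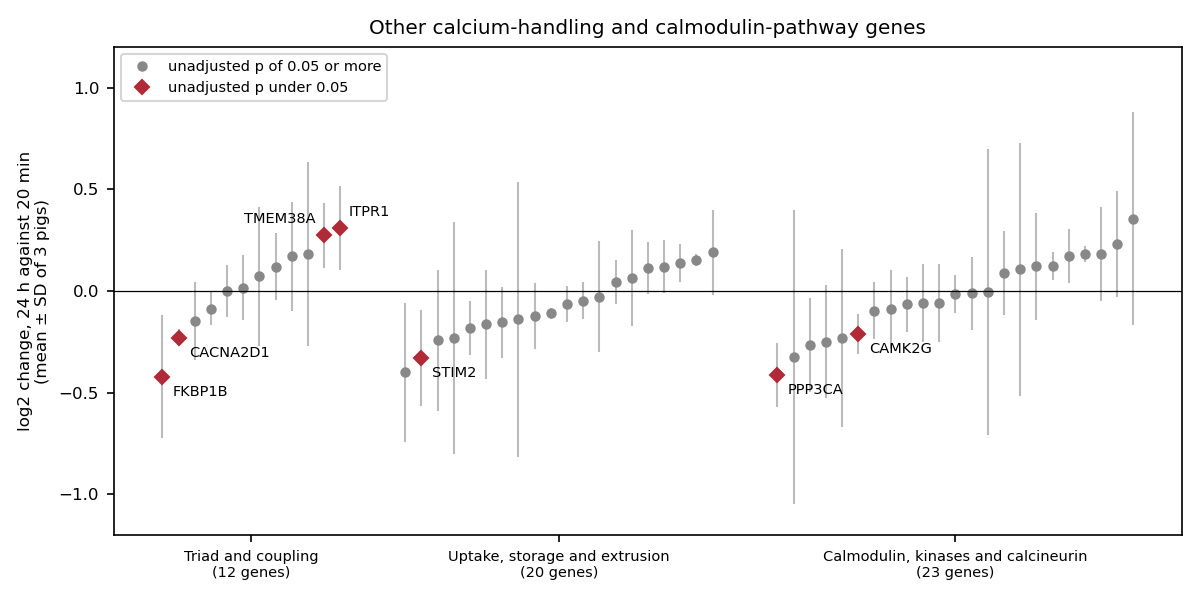
Log2 change at 24 h against 20 min of the 55 other calcium-pathway genes, sorted within 3 lists (points are means and bars SDs of 3 pigs). Diamonds mark the 7 genes with an unadjusted p under 0.05; none passed after adjustment over all probe sets.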

How the data were processed

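The values the authors deposited are log2 intensities, 1 per probe set and array; the submitters' processing notes name RMA and affy, with no version or setting. RMA gives all arrays nearly 1 distribution, so a shift shared by all transcripts would not show. The number of arrays, 12, limits the precision.

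After removal of 124 controls, 23999 of 24123 probe sets were tested, with no filter. Gene symbols are those of GEO's 2016 annotation and may be outdated (10069 tested sets with 1 symbol, 198 with several, 13732 with none); the gene IDs of all 12 member sets matched the Sscrofa11.1 RefSeq table. No coordinates are given, as no build is named for the array.

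Groups and pigs were read from the sample titles. In R 4.3.3, limma 3.58.1 (statmod 1.5.0) fitted the 4 times with pig as a fixed block, with two-sided p adjusted by Benjamini-Hochberg over 23999 probe sets and 0.05 as the threshold. Portions of 1 pig are paired by the series' design text; deviations from time means correlated with r of 0.409 to 0.656 within pigs. The fit was also run on simulated data with independent normal noise and planted changes equal in all pigs. That run cannot show how the fit handles changes that differ between pigs, as those of PLN did. Whether portions at 1 time vary technically or between animals cannot be separated, with 1 array per portion.

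The members and gene lists were chosen with earlier results of these data known. Members are all named; of the lists, up to 4 genes each with unadjusted p under 0.05 at 24 h; most-like genes are the 5 with the highest r over 12 pig-centred values. Alternatives changed the block, the filter, the scaling between arrays, the prior, the array weights and the arrays fitted, and left out each pig and each array in turn.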

Additional observations from a re-analysis of the deposited data

How the results depend on the processing

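In every alternative run, 0 member probe sets passed in each comparison (smallest adjusted p of a change from 20 min 0.0678, for PLN set 2 at 6 h without the 20 min array of pig 1). The numbers with an unadjusted p under 0.05 moved more. Without the replicate block, the counts 3 (any time), 4 (2 h), 3 (6 h), 5 (24 h) and 1 (24 h against 6 h) became 0, 0, 0, 2 and 0, and with pig as a random block they were 1, 2, 3, 3 and 0. Centring on the brightest 10% of probe sets gave 6 at 24 h, where the median change of all probe sets was then 0.041. The trended prior gave 5 at 6 h, array weights 5 for any time and 5 at 6 h, and the filter on the dimmest 40% gave 0 at 24 h against 6 h. With only the arrays of the times compared they were 3 at 24 h, 1 at 24 h against 2 h and 2 at 24 h against 6 h. Leaving out 1 pig or array gave 0 to 5 for any time, 0 to 6 at 2 h, 2 to 5 at 6 h, 0 to 5 at 24 h, 0 to 1 at 6 h against 2 h, and 0 to 2 at 24 h against 2 h or 6 h. Of the members' changes from 20 min, 794 values under an alternative kept direction and side of the threshold and 34 turned sign; the cause was not tested. One turned with array weights, ATP2A1 set 1 at 2 h (0.016). The others turned when a pig or array was left out, and ranged for ATP2A1 set 1 from -0.095 to 0.034 at 2 h, -0.078 to 0.015 at 6 h and -0.031 to 0.072 at 24 h; for ATP2A1 set 2 from -0.18 to 0.42 at 2 h and -0.38 to 0.043 at 24 h; for ATP2A2 set 2 from -0.12 to 0.12 at 2 h; for set 3 from -0.055 to 0.15 at 2 h and -0.011 to 0.28 at 24 h; and for set 4 from -0.050 to 0.43 at 2 h and -0.22 to 0.35 at 6 h.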
